A study of Drosophila melanogaster with 12 samples.

Results

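Nicotinic acetylcholine receptors are pentameric cation channels that open when acetylcholine binds. Acetylcholine is the main fast excitatory transmitter of the fly brain, so these receptors sit on the receiving side of most excitatory synapses there, on dopaminergic and cholinergic neurons alike. They belong to the Cys-loop family of ligand-gated channels, and neonicotinoid insecticides act on them. The alpha subunits carry the paired cysteines that help to bind acetylcholine, and the beta subunits complete the ring.

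The 10 Drosophila melanogaster genes nAChRalpha1 to nAChRalpha7 and nAChRbeta1 to nAChRbeta3 were followed. A gene counted when a probe set on the array had that gene as its only symbol in the platform annotation, and where a gene had more than 1 such probe set, the one with the highest mean over the 12 arrays was used. In this way 9 of the 10 genes had a probe set, among 11982 named genes in all. nAChRalpha6, the target of the insecticide spinosad, had none and was not analysed here. The 9 genes had 12 probe sets, since nAChRalpha1, nAChRalpha4 and nAChRbeta1 had a pair each. The probe set used for nAChRalpha2 carries the array maker's suffix for probes that can match more than 1 transcript, so its value may include other RNA.

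The samples were 12 pools of 115 green fluorescent neurons, each sorted by flow cytometry from at least 15 dissociated adult brains, with 1 array per pool and 3 pools in each of 4 groups. The groups were dopaminergic neurons of parkin null mutants, dopaminergic neurons of controls, cholinergic neurons of parkin null mutants and cholinergic neurons of controls. parkin encodes a ubiquitin ligase of mitochondrial quality control, and the series title sets a sensitive against an insensitive neuron population. The parkin allele, the control genotype, the driver of the fluorescent protein and the age and sex of the flies are not given in the sources used here. All values are log2 intensities as deposited, so a difference of 1 is a doubling. With 3 arrays in a group, precision is set by how few arrays there were.

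The dopaminergic label held against its defining marker in the controls. The tyrosine hydroxylase gene ple measured 7.01, 10.94 and 4.36 in dopaminergic mutants, 10.39 to 10.57 in dopaminergic controls, 3.64 to 3.78 in cholinergic mutants and 3.61 to 4.18 in cholinergic controls. The choline acetyltransferase gene ChAT measured 6.28 to 11.72 in dopaminergic mutants and 9.28 to 11.39 in dopaminergic controls, against 10.50 to 11.55 in cholinergic mutants and 9.72 to 11.21 in cholinergic controls, so this cholinergic marker did not separate the sorts. Dopaminergic mutant replicate 3 stood apart from all other arrays. It had 8.67% of its probe sets at or above a log2 intensity of 8, against 11.6% on dopaminergic mutant replicate 1 and 12.7% to 17.6% on the other 10 arrays, and its correlation with the others ran from 0.263 to 0.532 across probe sets. The neuronal gene elav measured 6.27 on it and 9.07 to 11.90 elsewhere, and ple was lowest on it within its group. The dopaminergic markers DAT, Vmat, Ddc and Fer2 measured 5.54, 5.19, 6.32 and 6.92 on it, against at least 9.58, 12.72, 11.29 and 9.59 in dopaminergic controls. Its summed level of the 5 dopaminergic markers was 8.25, below the lowest in cholinergic mutants (9.85) and cholinergic controls (9.51). These markers thus did not bear out its dopaminergic label. Values without that array are therefore given for the differences between dopaminergic mutants and dopaminergic controls.

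**Figure D1:**
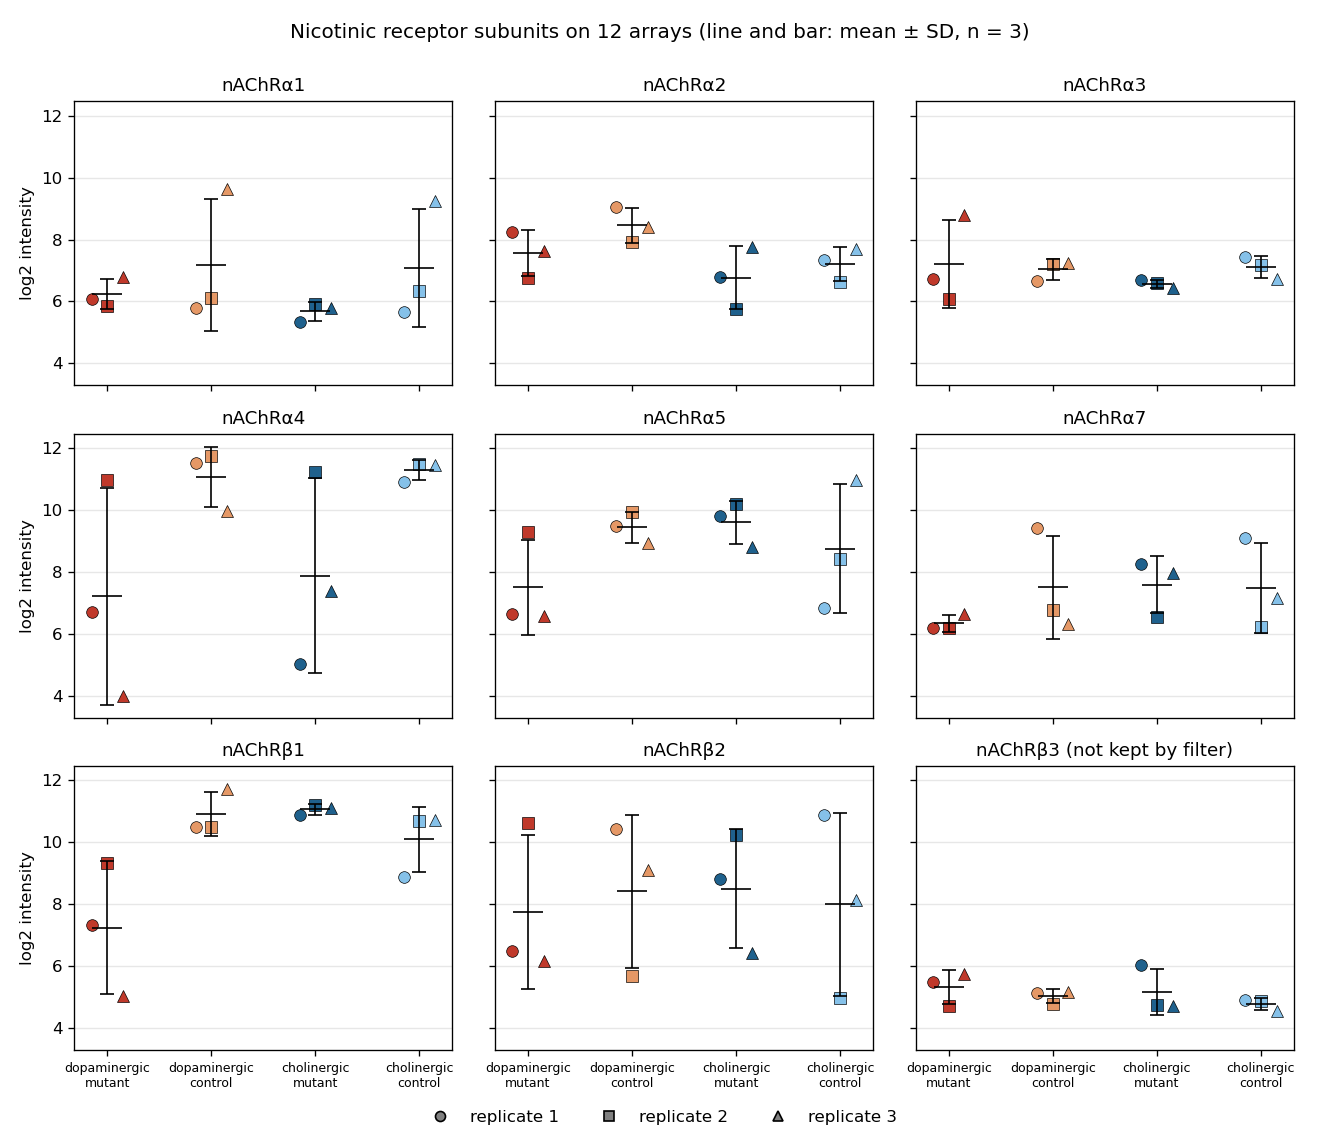
Log2 intensity (vertical axis) of 9 nicotinic subunit genes in the 4 groups, 1 point per array with the replicate given by its shape, and the mean ± SD (n = 3) as a line and bar. The dopaminergic mutants lie below the dopaminergic controls at nAChRbeta1 without overlap, while at nAChRalpha4 and nAChRbeta2 arrays of 1 group differ by several log2 units.

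nAChRbeta1 had the lowest unadjusted p of the 8 subunits tested in dopaminergic mutants against dopaminergic controls. It encodes a beta subunit, and mutations in it are known from insects to confer neonicotinoid resistance. It measured 7.33, 9.34 and 5.06 in dopaminergic mutants, against 10.51, 10.51 and 11.73 in dopaminergic controls. It measured 10.87, 11.20 and 11.12 in cholinergic mutants, against 8.88, 10.69 and 10.73 in cholinergic controls. At the probe set used, all 3 dopaminergic mutant arrays were thus below all 3 of their controls and below all 3 cholinergic mutant arrays. All 3 cholinergic mutant arrays were above their controls at that probe set.

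The means for nAChRbeta1 were 7.24 ± 2.15 in dopaminergic mutants and 10.92 ± 0.71 in dopaminergic controls (SD, n = 3 each), a log2 difference of -3.67 ± 1.04 (SE; 95% interval -5.97 to -1.38). With limma over 12460 probe sets this did not pass the adjusted p threshold of 0.05 (unadjusted p = 0.00476, adjusted p = 0.782). In cholinergic neurons the means were 11.06 ± 0.17 in mutants and 10.10 ± 1.06 in controls, a difference of 0.96 ± 1.04 (adjusted p = 0.939). The mutant effect in dopaminergic minus that in cholinergic neurons was -4.63 ± 1.48 (95% interval -7.88 to -1.39), which did not pass either (unadjusted p = 0.00934, adjusted p = 0.772). Dopaminergic minus cholinergic mutants gave -3.82 ± 1.04 (unadjusted p = 0.0037, adjusted p = 0.428). These comparisons share the dopaminergic mutant arrays and are not independent.

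The second probe set of nAChRbeta1 measured 6.03, 9.10 and 4.58 in dopaminergic mutants, against 8.07, 11.41 and 10.50 in dopaminergic controls. It measured 11.17, 10.39 and 10.45 in cholinergic mutants, against 10.44, 7.59 and 10.77 in cholinergic controls, so those groups overlapped there. It gave -3.43 ± 1.32 for dopaminergic mutants minus controls (adjusted p = 0.935) and -4.10 ± 1.32 for dopaminergic minus cholinergic mutants (adjusted p = 0.45). The probe sets had r = 0.81 over the 12 arrays, which share the arrays and their brightness. On the second probe set dopaminergic mutant replicate 2 overlapped the controls, so the separation there was carried by replicates 1 and 3. The size of the nAChRbeta1 difference depended on replicate 3. Without it, dopaminergic mutants minus controls was -2.58 (adjusted p = 0.989), dopaminergic minus cholinergic mutants -2.73 (adjusted p = 0.617) and the difference of the mutant effects -3.54 (adjusted p = 0.964) at the first probe set. Without dopaminergic mutant replicate 2, which leaves replicates 1 and 3, dopaminergic minus cholinergic mutants was -4.87 and passed (adjusted p = 0.0453), as 112 of 12460 probe sets did there, against 2 with all arrays. Dopaminergic mutants minus controls was then -4.72 (adjusted p = 0.0652), where 74 probe sets passed. In pools of cells, fewer cells carrying a transcript and less of it per cell cannot be told apart.

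**Figure D2:**
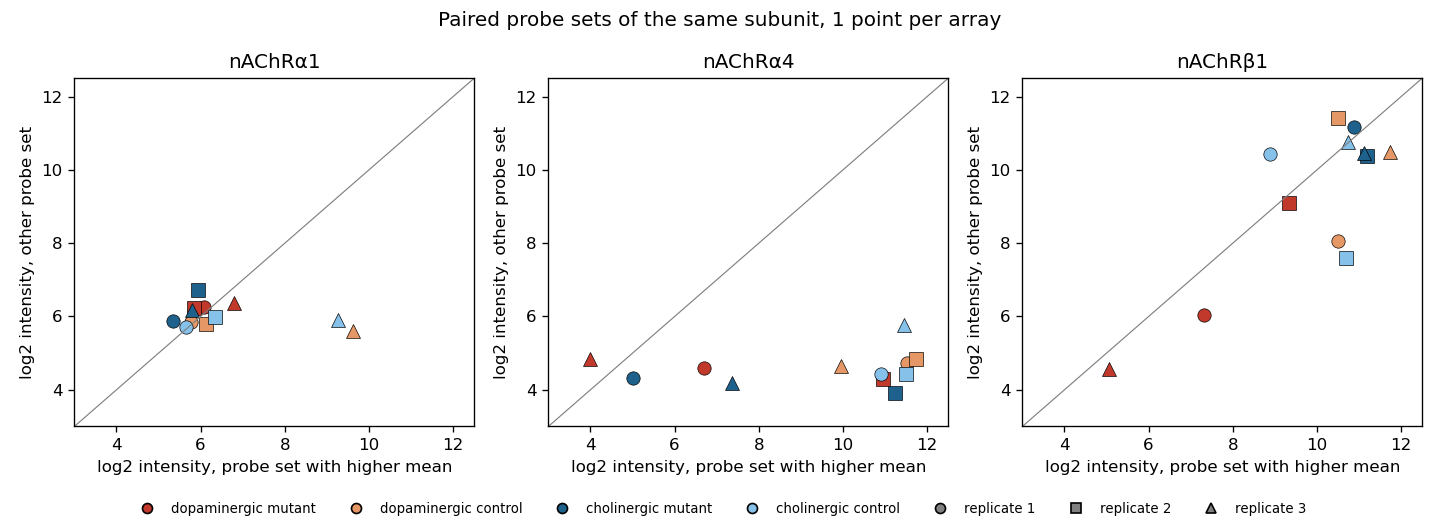
Log2 intensity of the probe set with the higher mean (horizontal axis) against that of the gene's other probe set (vertical axis) for nAChRalpha1, nAChRalpha4 and nAChRbeta1, 1 point per array, with colour for the group, shape for the replicate and a line of equality. The nAChRbeta1 points follow each other (r = 0.81), with dopaminergic mutant replicates 1 and 3 lowest on both axes, whereas the nAChRalpha1 and nAChRalpha4 pairs do not (r = -0.33 and 0.13).

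nAChRalpha4, an alpha subunit whose mutant redeye has altered sleep, was the subunit with the widest range over the arrays. It measured 6.70, 10.95 and 3.99 in dopaminergic mutants, against 11.52, 11.75 and 9.95 in dopaminergic controls. It measured 5.02, 11.24 and 7.37 in cholinergic mutants, against 10.90, 11.49 and 11.45 in cholinergic controls. The 6 control arrays lay between 9.95 and 11.75, and 4 of the 6 mutant arrays lay below all of them, while replicate 2 of each mutant group lay among them.

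The log2 difference of nAChRalpha4 was -3.86 ± 1.77 for mutants minus controls in dopaminergic neurons (unadjusted p = 0.052, adjusted p = 0.935) and -3.40 ± 1.77 in cholinergic neurons (adjusted p = 0.939). Single arrays moved both: the first was -2.25 without dopaminergic mutant replicate 3 and -5.73 without replicate 2, and the second -1.97 without cholinergic mutant replicate 1 and -5.08 without replicate 2. Averaged over neuron types it was -3.63 ± 1.25 (95% interval -6.39 to -0.87), which did not pass with limma (unadjusted p = 0.0144, adjusted p = 0.9997). The mutant effects of the neuron types differed by -0.46 ± 2.51, an interval of -5.97 to 5.06 that leaves a difference of several log2 units in either direction unresolved. The other probe set of nAChRalpha4 was at or above its array's median on 1 array only, so it was not kept for the test. It measured 4.28 to 4.83 in dopaminergic mutants, against 4.65 to 4.85 in dopaminergic controls, and 3.91 to 4.31 in cholinergic mutants, against 4.43 to 5.76 in cholinergic controls. The dimness of that probe set means that the nAChRalpha4 pattern rests on a single probe set.

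nAChRalpha5, nAChRalpha6 and nAChRalpha7 are the fly subunits most like the vertebrate alpha7 receptor. nAChRalpha5 measured 6.64, 9.28 and 6.59 in dopaminergic mutants, against 9.47, 9.93 and 8.94 in dopaminergic controls. It measured 9.80, 10.19 and 8.81 in cholinergic mutants, against 6.84, 8.43 and 10.97 in cholinergic controls. Dopaminergic mutant replicates 1 and 3 were the lowest of the 12 arrays, but cholinergic control replicate 1 was nearly as low. The difference was -1.95 ± 1.11 for dopaminergic mutants minus controls (adjusted p = 0.935) and 0.85 ± 1.11 for cholinergic mutants minus controls (adjusted p = 0.939), and neither was called. The first was -1.49 without dopaminergic mutant replicate 3.

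nAChRalpha7 is required in the giant fibre escape circuit. It measured 6.18, 6.18 and 6.65 in dopaminergic mutants, against 9.41, 6.77 and 6.33 in dopaminergic controls. It measured 8.27, 6.53 and 7.97 in cholinergic mutants, against 9.09, 6.24 and 7.15 in cholinergic controls. In the dopaminergic mutants no array reached a log2 intensity of 7, while at least 1 array did in each other group. The groups overlapped, and the difference of -1.17 ± 0.93 for dopaminergic mutants minus controls was within the spread (adjusted p = 0.935). Leaving out dopaminergic mutant replicate 3 gave -1.32. Among the dopaminergic controls, leaving out replicate 1 gave -0.21 and leaving out replicate 3 gave -1.75.

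nAChRbeta2, nAChRalpha2 and nAChRalpha1 lie close together on chromosome arm 3R in the Release 6 gene table. There is no annotated protein-coding gene between nAChRalpha2 and nAChRbeta2, and 1 such gene between nAChRalpha1 and nAChRalpha2. Over the 12 arrays their levels did not move closely together, with r = -0.10 for nAChRalpha2 and nAChRbeta2 and r = 0.31 for nAChRalpha1 and nAChRalpha2, given as a description.

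The beta subunit gene nAChRbeta2 varied more within groups than between them. It measured 6.48, 10.63 and 6.17 in dopaminergic mutants, against 10.45, 5.68 and 9.12 in dopaminergic controls. It measured 8.81, 10.25 and 6.44 in cholinergic mutants, against 10.89, 4.97 and 8.15 in cholinergic controls. Every group held at least 1 array above 10 and at least 1 below 6.5, and the 4 group means lay within 1 log2 unit of each other, with 7.76 in dopaminergic mutants and 8.42 in dopaminergic controls. The 4 simple differences ran from -0.74 ± 1.80 to 0.50 ± 1.80, and the interval for dopaminergic mutants minus controls was -4.62 to 3.31. That difference was -0.66, and 0.14 without dopaminergic mutant replicate 3.

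nAChRalpha2 measured 8.24, 6.76 and 7.64 in dopaminergic mutants, against 9.05, 7.91 and 8.42 in dopaminergic controls. It measured 6.79, 5.74 and 7.77 in cholinergic mutants, against 7.33, 6.62 and 7.70 in cholinergic controls. Dopaminergic mutants minus controls was -0.91 ± 0.68 (adjusted p = 0.935), and -0.96 without dopaminergic mutant replicate 3. The dopaminergic controls were above the cholinergic controls without overlap, by 1.24 ± 0.68 (unadjusted p = 0.0952, adjusted p = 0.9998). Averaged over genotypes, dopaminergic minus cholinergic neurons gave 1.01 ± 0.48 (95% interval -0.05 to 2.07; adjusted p = 0.672), the highest of the subunits in that comparison.

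nAChRalpha1, in which mutations also lower neonicotinoid sensitivity, was bright on 2 arrays only. It measured 6.09, 5.84 and 6.79 in dopaminergic mutants, against 5.78, 6.13 and 9.63 in dopaminergic controls. It measured 5.35, 5.93 and 5.79 in cholinergic mutants, against 5.66, 6.34 and 9.26 in cholinergic controls. The third replicate of each control group was thus far above the other 10 arrays. Both arrays carry title codes starting with E, as do 3 arrays without that brightness. The second nAChRalpha1 probe set measured 5.60 and 5.91 on the same arrays, inside its range of 5.60 to 6.72 over all 12, and correlated with the first at r = -0.33. That probe set was higher in dopaminergic mutants (6.24 to 6.37) than in dopaminergic controls (5.60 to 5.85) without overlap, by 0.54 ± 0.34 (adjusted p = 0.935), the opposite sign to the first. The mutant minus control differences of the first probe set, -0.94 ± 1.06 in dopaminergic and -1.40 ± 1.06 in cholinergic neurons, include those arrays and were not called (adjusted p = 0.935 and 0.939). Without dopaminergic control replicate 3 the dopaminergic value turned to 0.29, and leaving out dopaminergic mutant replicate 3 gave -1.21. The cholinergic value was -0.31 without cholinergic control replicate 3 and -2.11 without cholinergic control replicate 1.

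nAChRalpha3 varied less. It measured 6.73, 6.07 and 8.79 in dopaminergic mutants, against 6.65, 7.20 and 7.26 in dopaminergic controls. It measured 6.69, 6.58 and 6.44 in cholinergic mutants, against 7.42, 7.17 and 6.74 in cholinergic controls. The value of 8.79 is on dopaminergic mutant replicate 3, the array with the fewest bright probe sets, and without it the dopaminergic difference of 0.16 ± 0.64 turned to -0.63. In cholinergic neurons the mutants lay just below the controls without overlap, by -0.54 ± 0.64 (adjusted p = 0.939).

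nAChRbeta3, a divergent subunit, was at or above its array's median on 1 array only and was not kept for the test. It measured 4.71 to 5.76 in dopaminergic mutants, 4.77 to 5.18 in dopaminergic controls, 4.71 to 6.03 in cholinergic mutants and 4.54 to 4.92 in cholinergic controls. The groups overlapped. In a fit without the filter its differences between groups ran from 0.16 ± 0.43 to 0.39 ± 0.43 in the 4 simple comparisons, with adjusted p from 0.86 upward.

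**Figure D3:**
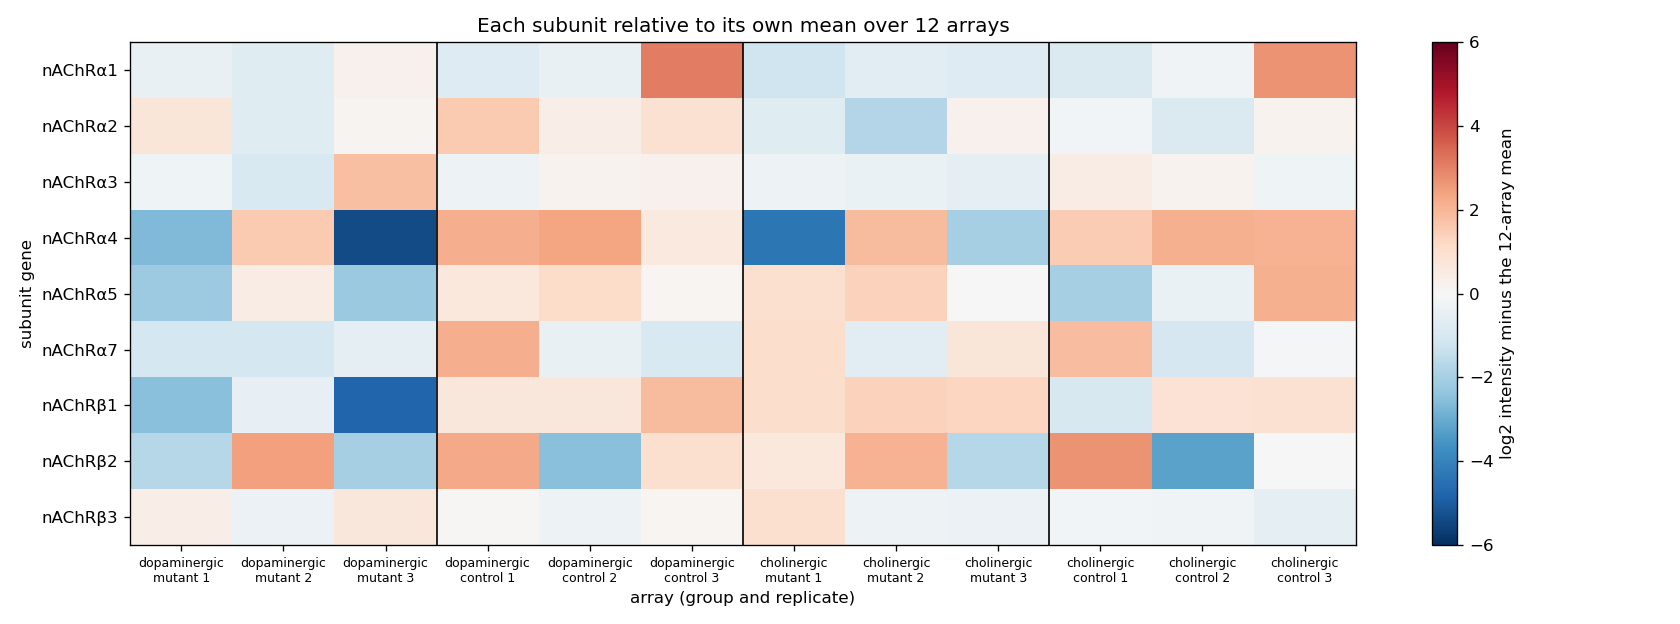
Log2 intensity of each subunit minus its own mean over the 12 arrays (colour, red higher and blue lower), with 1 column per array. Blue cells for nAChRalpha4, nAChRalpha5, nAChRbeta1 and nAChRbeta2 lie on dopaminergic mutant replicates 1 and 3. Replicate 2 of that group is close to or above the mean for nAChRalpha4, nAChRalpha5 and nAChRbeta2. nAChRalpha4 is also blue on cholinergic mutant replicates 1 and 3, and nAChRalpha5 on cholinergic control replicate 1. nAChRbeta2 is lower still on replicate 2 of both control groups.

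For the family, counts and medians are set beside those of all probe sets, and comparisons that share a group are not independent. Of the 8 tested, 7 were measured lower in dopaminergic mutants than in dopaminergic controls, with a median log2 difference of -1.05, against a median of 0.18 over all 12460 probe sets. Of all probe sets, 5024 were measured lower and 59.7% higher. None passed, where 0% of all probe sets passed (0 of 12460), and 1 of 8 had an unadjusted p under 0.05, against 4.49% of all. At the probe sets used, nAChRbeta1 alone separated the groups without overlap, in the lower direction, as 2.9% of all probe sets did. Another 6.1% separated in the higher direction, making 9% in all. The count was also 7 of 8 under quantile normalization and under centring of the arrays, with medians of -1.17 and -1.20 for the subunits and 0.16 and 0.04 for all probe sets. The count was 7 of 8 also without dopaminergic mutant replicate 3, with a median of -1.27 against -0.02 over all, although nAChRalpha3 and nAChRbeta2 changed places there.

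In cholinergic neurons 4 of 8 subunits were measured higher and 4 lower in mutants than in controls, with a median of -0.18 against -0.17 over all probe sets. Of all probe sets, 41.9% were measured higher. No subunit passed, where 0.0482% of all probe sets did, and none had an unadjusted p under 0.05, against 4.57%. At the probe sets used, nAChRbeta1 lay higher and nAChRalpha3 lower without overlap. Of all probe sets, 3.67% and 8.26% did so in those directions and 11.9% in either. Under quantile normalization the split was 3 higher and 5 lower. For the difference of the mutant effects, dopaminergic minus cholinergic, 2 subunits were above 0 and 6 below, with a median of -0.81 against 0.26 over all. Above 0 were 57.7% of all probe sets. The split was again 2 and 6 without dopaminergic mutant replicate 3, with a median of -0.43 against 0.15. None passed, and 0% of all probe sets did. nAChRbeta1 had an unadjusted p under 0.05, against 5.18% of all.

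Between neuron types, 6 of 8 subunits were measured higher in dopaminergic than in cholinergic controls, with differences from -0.21 to 1.24 and a median of 0.25 against 0.05 over all probe sets. Of all probe sets, 54.1% were measured higher. None passed and 0% of all probe sets did, and no subunit had an unadjusted p under 0.05 (3.63% of all). nAChRalpha2 alone lay apart without overlap, higher, as 4.96% of all probe sets did, against 3.53% lower and 8.49% in either direction. With centred arrays the split was 5 higher and 3 lower. In mutants, 3 subunits were higher and 5 lower in dopaminergic than in cholinergic neurons, with a median of -0.70 against 0.27 over all. Of all probe sets, 58.7% were measured higher. None passed, where 0.0161% did, and nAChRbeta1 alone had an unadjusted p under 0.05, against 10.5% of all. It also lay lower without overlap, as 4.57% of all did, against 9.22% higher and 13.8% in either direction. Without dopaminergic mutant replicate 3 the split was 4 and 4, with a median of -0.06.

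Averaged over genotypes, 3 subunits were higher and 5 lower in dopaminergic than in cholinergic neurons, where 59.2% of all probe sets were higher. Without dopaminergic mutant replicate 3 the split was 4 and 4. None passed (0% of all), and none had an unadjusted p under 0.05, against 6.61% of all. Averaged over neuron types, all 8 were measured lower in mutants than in controls (7 of 8 under quantile normalization and without dopaminergic mutant replicate 3), with a median of -0.61 against -0.01 over all. Of all 12460 probe sets, 6345 were measured lower and 49.1% higher. None passed (0% of all), and nAChRalpha4 alone had an unadjusted p under 0.05, against 3.73% of all.

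**Figure D4:**
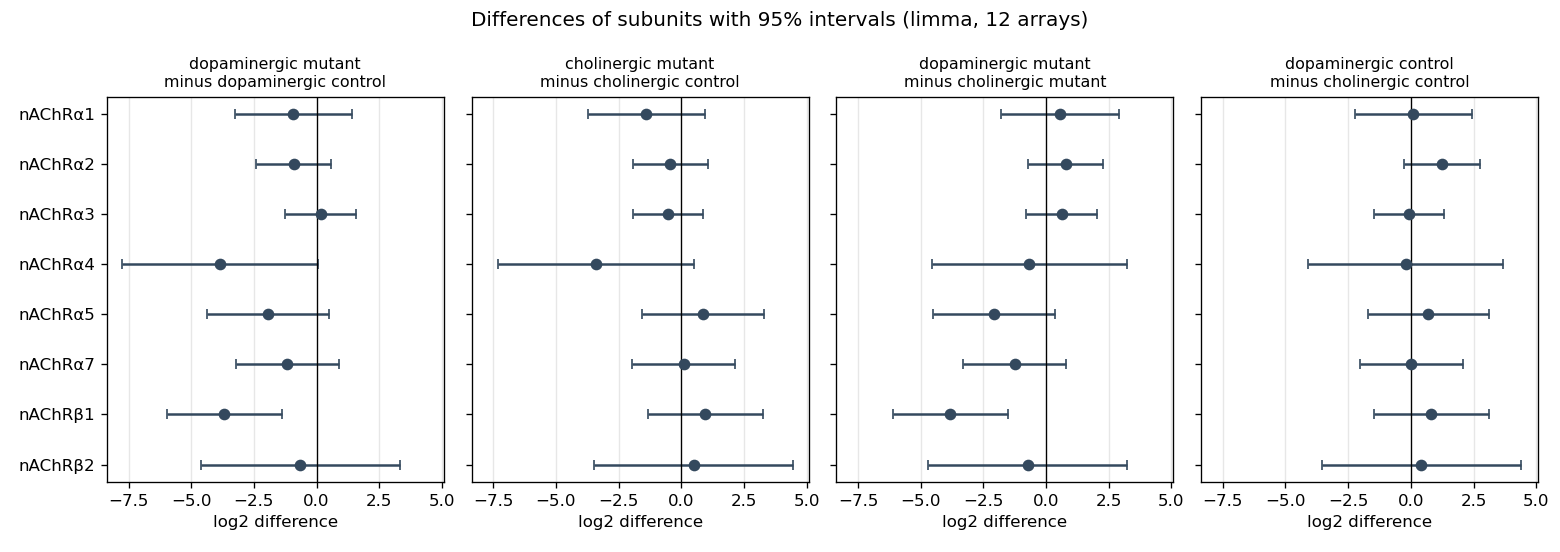
Log2 difference (point) with its 95% interval (bar) from limma for 8 subunits in the 4 simple comparisons. The intervals of nAChRbeta1 lie below 0 for dopaminergic mutants against dopaminergic controls (-5.97 to -1.38) and against cholinergic mutants, and all others cross 0.

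The spread within groups sets what these arrays could resolve. The pooled standard deviation within groups was 2.49 for nAChRbeta2, 2.41 for nAChRalpha4 and 0.74 to 1.46 for the other 6 subunits tested, with a median of 1.31 against 0.98 over all probe sets kept. By array, 1 of 9 subunits reached a log2 intensity of 8 on dopaminergic mutant replicate 1 (nAChRalpha2) and 1 of 9 on replicate 3 (nAChRalpha3). On the other arrays 2 to 6 subunits did. Summed over arrays this was 6 of 27 values in dopaminergic mutants, 15 of 27 in dopaminergic controls, 10 of 27 in cholinergic mutants and 12 of 27 in cholinergic controls. Those same 2 arrays had the lowest shares of bright probe sets overall (11.6% and 8.67%), and the part of this in the subunit values was not tested.

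The summed level of the 4 neuronal markers with a probe set (elav, nSyb, brp and nrv3, of 5 listed) ran from 10.79 to 13.74 on the log2 scale in dopaminergic mutants and 13.01 to 13.48 in dopaminergic controls, against 13.53 to 13.76 in cholinergic mutants and 12.49 to 13.66 in cholinergic controls. Dopaminergic mutant replicate 3 was the lowest, at 10.79. The next lowest was cholinergic control replicate 2, at 12.49, where elav measured 9.07. On dopaminergic mutant replicate 1 elav measured 11.49 and nSyb 11.61, inside or above the range of the other arrays. The dopaminergic markers ple and Fer2 measured 7.01 and 6.84 on that array, against at least 10.39 and 9.59 in dopaminergic controls, whereas DAT, Vmat and Ddc measured 9.77, 12.71 and 11.38. nAChRbeta1 measured 7.33 there. The part of the sort in the subunit values was not tested. The summed level of 5 of 6 glial markers ran from 7.55 to 11.75 in dopaminergic mutants and 6.98 to 10.12 in dopaminergic controls, against 8.69 to 10.22 in cholinergic mutants and 7.15 to 10.60 in cholinergic controls. Single glial markers were bright on some arrays: Gs2 measured 11.71 on dopaminergic mutant replicate 1 and 9.69 and 9.88 on dopaminergic control replicates 2 and 3, and moody was 9.59 and 10.49 on cholinergic control replicates 1 and 3, while repo was below 3.1 on 10 of the 12 arrays. Their part in the subunit values was not tested. For 3 markers of GABA and glutamate neurons the sums were 6.96 to 11.49 in dopaminergic mutants and 6.97 to 11.23 in dopaminergic controls. They were 8.48 to 11.44 in cholinergic mutants and 9.82 to 12.30 in cholinergic controls. Of these, Gad1 measured 7.88 to 10.81 in cholinergic mutants, 9.49 to 10.79 in cholinergic controls and 2.63, 9.76 and 11.18 in dopaminergic controls. The part of such neurons was not tested. For 5 Kenyon cell markers, genes of the mushroom body's intrinsic neurons, the sums were 7.86 to 10.04 in dopaminergic mutants and 9.41 to 10.53 in dopaminergic controls, against 11.65 to 12.36 in cholinergic mutants and 10.01 to 11.05 in cholinergic controls. In cholinergic mutants these sums rested mostly on Dop1R1 (9.83 to 10.89), rut (8.81 to 10.82) and toy (7.12 to 11.61). There ey measured 7.37, 8.34 and 4.58, and prt measured 3.82 to 5.69 over the 12 arrays. Kenyon cells are themselves cholinergic. Whether the sums reflect these cells, and their part in the subunit levels, was not tested. For 3 of 4 photoreceptor markers the sums were 8.28 to 9.32 in dopaminergic mutants and 9.95 to 10.84 in dopaminergic controls. They were 8.37 to 11.07 in cholinergic mutants and 8.21 to 10.98 in cholinergic controls. Only chp separated the dopaminergic groups, at 5.09, 7.93 and 6.16 in mutants against 9.60, 10.66 and 10.58 in controls. There trp (7.06 to 8.58 against 7.24 to 7.48) and Arr2 (5.12 to 7.53 against 5.85 to 6.20) overlapped. The part of photoreceptors was not tested either.

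The subunits did not share 1 pattern across arrays. Over the 28 pairs of the 8 tested subunits, r over the 12 arrays had a median of 0.15 and ran from -0.63, for nAChRalpha3 and nAChRbeta1, to 0.77, for nAChRalpha5 and nAChRbeta1. Without dopaminergic mutant replicate 3 the values for those pairs were 0.06 and 0.71. The arrays share their brightness, so these are descriptions.

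Among 8662 other kept probe sets with a single gene symbol, the one most like each subunit over the 12 arrays was sought by Pearson r. It was Galphaq, a G protein alpha subunit, for nAChRbeta1 (r = 0.94, and 0.88 without dopaminergic mutant replicate 3). For nAChRalpha4 (r = 0.83) and nAChRalpha5 (r = 0.92) it was the translation initiation factor gene eIF4B, at different probe sets. For nAChRalpha3 it was the peroxisomal import gene Pex7 (r = 0.95, and 0.83 without that array). For nAChRbeta2 it was the T-box gene mid (r = 0.89), and for nAChRalpha1, nAChRalpha2 and nAChRalpha7 it was CG11454, CG12817 and CG12155 (r = 0.98, 0.89 and 0.96). The highest of 8662 values over 12 points is high by selection, so no p is given.

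**Figure D5:**
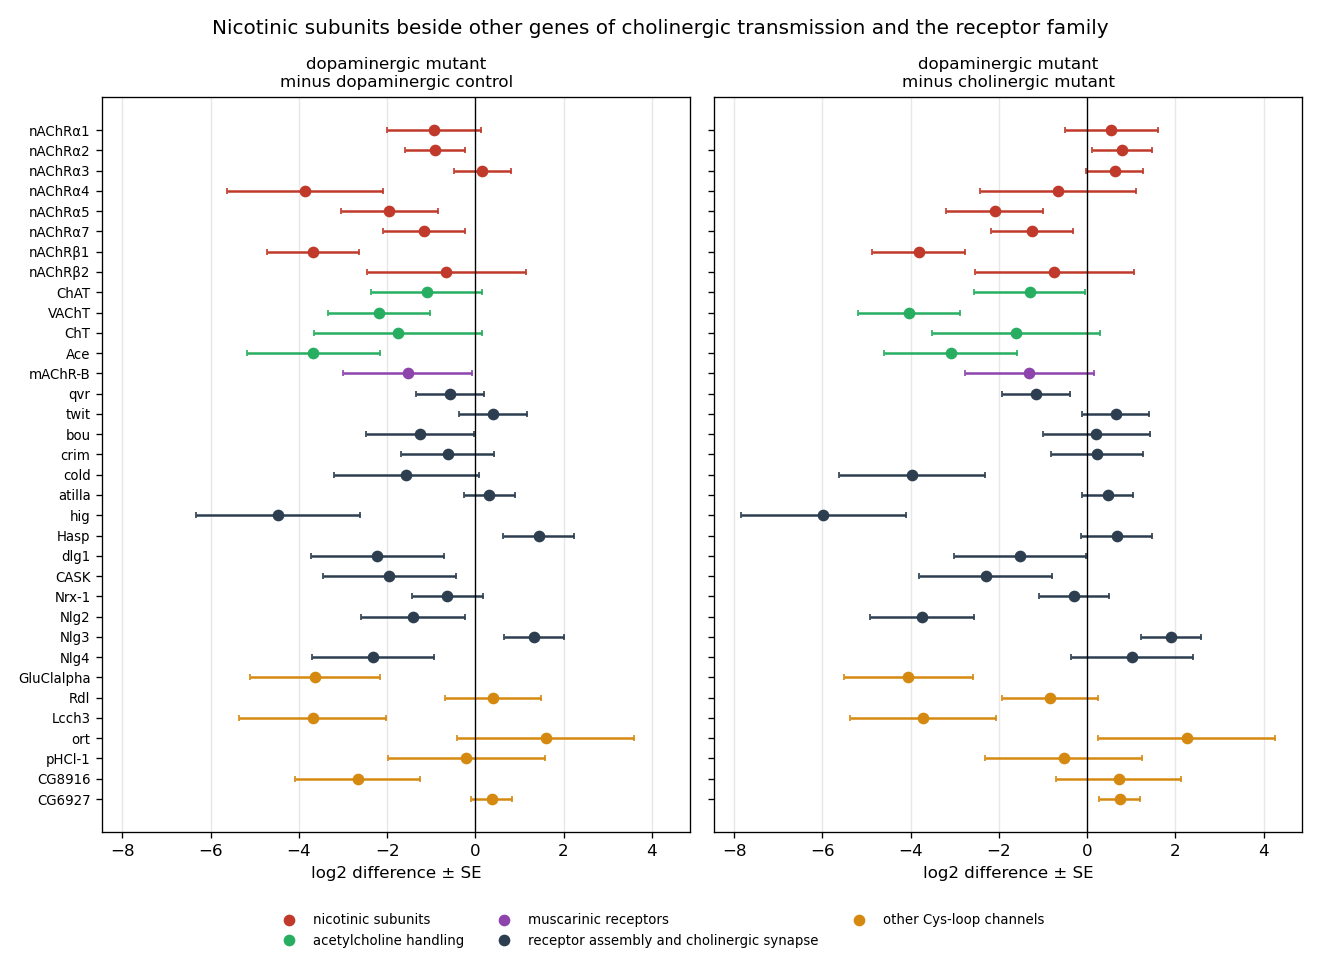
Log2 difference ± SE from limma for 8 nicotinic subunits and 26 other genes of cholinergic transmission and the receptor family, coloured by list, for dopaminergic mutants against dopaminergic controls (left) and against cholinergic mutants (right). Acetylcholine handling genes lie below 0 in both panels, and no gene shown passed the threshold.

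The other genes of cholinergic transmission were described beside the subunits. Of the 4 genes that make, load, recover and break down acetylcholine, all 4 were measured lower in dopaminergic mutants than in dopaminergic controls. Their median was -1.97, against 0.18 over all probe sets, and none was called, where 0% of all probe sets were. The acetylcholinesterase gene Ace measured 3.54, 9.19 and 4.13 in dopaminergic mutants, against 9.19, 8.55 and 10.11 in dopaminergic controls (-3.67 ± 1.51, adjusted p = 0.935). The vesicular transporter gene VAChT measured 5.49, 8.16 and 4.87 in dopaminergic mutants, against 10.03, 9.71 and 10.88 in cholinergic mutants (-4.03 ± 1.16, unadjusted p = 0.00500, adjusted p = 0.45). VAChT in the dopaminergic controls measured 9.74, 9.34 and 6.01, with replicate 3 below dopaminergic mutant replicate 2, so the groups overlapped (-2.19 ± 1.16, adjusted p = 0.935). Ace was low on dopaminergic mutant replicates 1 and 3 and not on replicate 2. Without replicate 3, Ace was at -2.92 and VAChT at -1.54 against the dopaminergic controls, and VAChT at -3.38 against the cholinergic mutants. ChAT and the choline transporter gene ChT were not low on replicate 1, at 11.72 and 11.24. Without dopaminergic mutant replicate 3 the split of the 4 genes was 2 higher and 2 lower than in dopaminergic controls, with a median of -0.57.

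Of 18 genes for receptor accessory proteins and the cholinergic synapse, 16 had a probe set and 14 were kept. In dopaminergic mutants 10 of the 14 were measured lower and 4 higher than in dopaminergic controls (median -0.94, against 0.18 over all probe sets), with none called, where 0% of all probe sets were. Without dopaminergic mutant replicate 3 the split was 9 and 5, and the median was -0.10 against -0.02 over all. Under quantile normalization the split was also 9 and 5. hig, a synaptic cleft protein that helps to localise nicotinic receptors, measured 2.94, 11.15 and 3.49 in dopaminergic mutants, against 11.30, 7.87 and 11.84 in dopaminergic controls and 12.30, 11.30 and 11.93 in cholinergic mutants. It differed by -4.48 ± 1.87 from the dopaminergic controls (adjusted p = 0.935) and by -5.98 ± 1.87 from the cholinergic mutants (adjusted p = 0.45), and by -3.29 and -4.80 without dopaminergic mutant replicate 3. Its partner Hasp, which anchors Hig in the cleft, measured 10.62, 9.84 and 11.33 in dopaminergic mutants, against 10.64, 8.18 and 8.64 in dopaminergic controls (1.44 ± 0.80, adjusted p = 0.935, and 1.07 without replicate 3).

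Among adhesion genes of the synapse, the neuroligin gene Nlg2 was at -3.74 ± 1.17 for dopaminergic minus cholinergic mutants and Nlg3 at 1.90 ± 0.68 (adjusted p = 0.45 for both). They were at -3.59 and 2.04 without dopaminergic mutant replicate 3. In cholinergic neurons Nlg4 was at -3.36 ± 1.38 and Nlg2 at 2.54 ± 1.17 for mutants minus controls (adjusted p = 0.939 for both), and twit, of the Ly6 family, was at -1.64 ± 0.77. qvr, a Ly6 protein also called sleepless that modulates nicotinic and potassium channels, measured 8.98 to 12.10 in dopaminergic mutants and 10.90 to 11.52 in dopaminergic controls. qvr was chosen after its values were seen. The probe sets used for Nlg2, qvr and ChT carry the same suffix as that of nAChRalpha2, so their values may also include other RNA.

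Only 1 of 3 muscarinic receptor genes was kept, mAChR-B, a G protein-coupled receptor for acetylcholine. It reached 8 on 1 of 3 dopaminergic control arrays and 1 of 3 cholinergic mutant arrays, and differed by -1.54 ± 1.46 between dopaminergic mutants and dopaminergic controls (adjusted p = 0.935), or by -1.36 without dopaminergic mutant replicate 3.

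The other Cys-loop channels of the fly conduct chloride for the most part and open to GABA, glutamate or histamine. Of 12 genes, 11 had a probe set and 7 were kept, of which 4 were measured lower and 3 higher in dopaminergic mutants than in dopaminergic controls (median -0.21, against 0.18 over all probe sets), with none called, where 0% of all probe sets were. Without dopaminergic mutant replicate 3 the split was again 4 and 3, but the median was -1.26, and the histamine-gated channel gene ort was at -1.26 against 1.60 with that array. The glutamate-gated chloride channel gene GluClalpha measured 5.79, 12.50 and 5.70 in dopaminergic mutants, against 12.21, 11.26 and 11.42 in dopaminergic controls and 12.07, 11.89 and 12.19 in cholinergic mutants. It differed by -3.63 ± 1.47 from the dopaminergic controls (adjusted p = 0.935) and by -4.05 ± 1.47 from the cholinergic mutants (adjusted p = 0.45), and by -2.49 and -2.91 without dopaminergic mutant replicate 3. The GABA receptor gene Rdl measured 8.02, 11.28 and 8.31 in dopaminergic mutants, against 10.61, 6.98 and 8.78 in dopaminergic controls, and overlapped them. The GABA receptor family genes Lcch3 and CG8916 were at -3.69 ± 1.66 and -2.67 ± 1.42 for dopaminergic mutants minus controls (adjusted p = 0.935 for both), and at -3.11 and -3.05 without dopaminergic mutant replicate 3. GluClalpha was low on dopaminergic mutant replicates 1 and 3, while on replicate 2 it was above all 3 dopaminergic controls. nAChRbeta1 was below its controls on all 3 at the probe set used, but at its second probe set replicate 2 overlapped them.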

How the data were processed

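RNA of 12 pools of sorted neurons was amplified, biotinylated and measured on the Affymetrix Drosophila 2.0 array, per the labels' protocols. Each probe set has 1 log2 intensity per array as deposited, and how the authors normalized and summarised them is not given in the sources used here. Control probe sets (183 of 18952) were left out, and of the other 18769, 13647 had 1 gene symbol, 402 several and 4720 none. Symbols were updated through the reference gene table (13544 matched). Probe sets at or above their array's median on at least 3 arrays were tested (12460), as deposited, by lmFit and then eBayes with an intensity trend (limma 3.58.1, R 4.3.3, 2-sided), 1 coefficient per group over 12 arrays, 8 residual and 3.07 prior degrees of freedom, Benjamini-Hochberg adjustment within each of 7 comparisons and a threshold of 0.05. SE and 95% intervals are limma's. The fit was run on simulated data as a check of the code, and its power is not reported here.

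Every subunit was named. From each list, no more than 3 members, those of lowest p in a simple comparison, could be named, and for each subunit the gene with the highest r. The members and lists were chosen with earlier results of these data known. Alternatives were other scalings, filters, eBayes settings, array weights, only the 6 arrays compared, title codes as a block, averaged probe sets, a threshold of 0.1 and leaving out each array. parkin had no named probe set and was not analysed here. Whether a group's pools were taken from different sets of flies is not in the labels, so the p-values reflect only variation among these arrays, which may be technical. Summed marker levels are log2 of summed intensities. Python 3.11.15 and matplotlib 3.10.9 made the plots.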

Additional observations from a re-analysis of the deposited data

How the results depend on the processing

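No subunit was called in any of the 7 comparisons as reported. That count of 0 held under all alternatives except 3, all through nAChRbeta1. With array weights, 1 subunit was called for dopaminergic mutants minus dopaminergic controls (-3.68, adjusted p = 0.0181, with 524 probe sets called in all) and 1 for dopaminergic minus cholinergic mutants (-3.78, adjusted p = 0.0233, with 620 called), where dopaminergic mutant replicate 1 had a weight of 4.56 and replicates 2 and 3 had 0.28 and 0.41. The estimation of these weights stopped short of its convergence tolerance. Leaving out single arrays gave 0 to 1 subunits for dopaminergic minus cholinergic mutants, with nAChRbeta1 from -4.87 to -2.73, and 0 in the other comparisons. No paired analysis was possible because the replicate numbers follow accession order and pair nothing.

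Signs of small differences turned in several settings, and the cause was not tested. Dopaminergic mutant replicate 3 is the only array with title letter F, so with letters as a block it does not enter the differences. For mutants minus controls in dopaminergic neurons, nAChRalpha3 was -0.17 with array weights and -0.74 with title code letters as a block, and nAChRbeta2 was 0.93 with the block. In cholinergic neurons nAChRalpha7 was -0.0048 under quantile normalization, -0.048 with array weights and -0.47 with the block, which also gave -0.20 for nAChRalpha5 and -1.55 for nAChRbeta2. For dopaminergic minus cholinergic controls, nAChRalpha7 was -0.022 with centred arrays, -0.047 with array weights and -0.60 with the block, nAChRalpha1 was -0.013 with averaged probe sets, and the block gave 0.10 for nAChRalpha3, 0.077 for nAChRalpha4 and -0.80 for nAChRbeta2. For dopaminergic minus cholinergic mutants the block gave -0.43 for nAChRalpha3, 0.87 for nAChRalpha4 and 1.68 for nAChRbeta2.

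Leaving out single arrays gave these ranges where a sign turned. In dopaminergic mutants minus controls they were -1.64 to 0.29 for nAChRalpha1, -0.63 to 0.72 for nAChRalpha3 and -2.09 to 0.36 for nAChRbeta2. In cholinergic mutants minus controls they were -0.95 to 0.060 for nAChRalpha2, -0.10 to 1.96 for nAChRalpha5, -0.53 to 0.89 for nAChRalpha7 and -1.02 to 1.94 for nAChRbeta2. For dopaminergic minus cholinergic controls they were -1.14 to 1.18 for nAChRalpha1, -0.26 to 0.12 for nAChRalpha3, -0.54 to 0.35 for nAChRalpha4, -0.25 to 1.81 for nAChRalpha5, -0.94 to 0.81 for nAChRalpha7 and -1.10 to 1.85 for nAChRbeta2. For dopaminergic minus cholinergic mutants they were -0.17 to 1.19 for nAChRalpha3, -2.53 to 1.02 for nAChRalpha4 and -2.18 to 0.13 for nAChRbeta2.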
